A study of Mus musculus with 36 samples.

Results

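The p38 arm of the mitogen-activated protein (MAP) kinase network was followed through 8 genes: the activating kinases Map2k3 and Map2k6, the p38 kinases Mapk14, Mapk11, Mapk12 and Mapk13, and the downstream kinases Mapkapk2 and Mapkapk3. Members were the probe sets that the array annotation pairs with 1 of these symbols, which gave 17 of the 45037 probe sets that are no Affymetrix control, for 8 of the 18193 genes with such a symbol. Each array measured RNA of left ventricle, as whole tissue, from adult mice on the C57black background. Tamoxifen was injected at 20 mg/kg on 3 consecutive days from 12 weeks of age in every mouse, controls included. Hearts were taken early, 4 to 7 days after the first injection, or late, 2 to 4 weeks after it.

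The MKK3bE hearts, which carry an active form of the p38 activator MKK3, gave 2 female arrays early, and 2 female and 3 male arrays late. The HRas-v12 hearts, which carry an active Ras, gave 2 female and 3 male arrays early and 3 of each sex late. Both lines share control arrays, 3 female and 3 male, that have no time in the labels. The MKK7D hearts, which carry an active form of MKK7, the activator of the JNK kinases, gave 3 female arrays at each time, beside 3 control females of their own at each time. All 3 transgenes are floxed and sit, like the Mer-Cre-Mer recombinase that tamoxifen switches on, behind the αMHC promoter, which acts in heart muscle cells. Controls are non-transgenic littermates per the labels, and no group is labelled as carrying the recombinase alone. In whole tissue, fewer cells of a type and less RNA per cell cannot be told apart.

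The p38 kinases are stress kinases. MAP kinase kinase kinases phosphorylate MKK3 and MKK6, the products of Map2k3 and Map2k6, and these phosphorylate p38α (Mapk14), p38β (Mapk11), p38γ (Mapk12) and p38δ (Mapk13). Active p38 then acts on transcription factors and on MK2 and MK3, the products of Mapkapk2 and Mapkapk3, which control the stability and translation of inflammatory mRNAs. In the heart p38α is the main form, p38γ is typical of striated muscle, and p38 activity has been studied in remodelling and heart failure. An array reads RNA, so neither the phosphorylation nor the activity of any of these kinases was measured.

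In MKK3bE hearts the brightest Mapk14 probe set and the only Map2k6 probe set were lower than in shared controls at both times. In the same comparisons 1 probe set each of Mapk12 and Map2k3 was higher. That Map2k3 probe set was also higher in HRas-v12 hearts at both times. In females set against MKK7D controls instead, it was not called in either line, nor was Mapk12 in late MKK3bE hearts. The Mapk14 probe set was 1.90-fold lower early and 1.77-fold lower late, and every MKK3bE array lay below each of the other 29 arrays. Map2k6 was 4.53-fold lower early and 5.72-fold lower late. Map2k6 was also 3.78-fold lower in early HRas-v12 hearts and was not called different from controls in late ones. No probe set of Mapk11, Mapkapk2 or Mapkapk3 was called in any of the 6 comparisons of a line with its controls on all arrays.

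The promoters of the 4 genes with a called probe set in these comparisons are shown so that the sequences of members called higher and lower can be set side by side. Each runs from 250 bases before to 50 bases after the first listed RefSeq start of the gene in build GRCm38.p6, and the arrays do not show which start was in use. Mapk14 lies at chr17:28691092-28691391 on the plus strand, Mapk12 at chr15:89140654-89140953 on the minus strand, Map2k3 at chr11:60931804-60932103 on the plus strand and Map2k6 at chr11:110398852-110399151 on the plus strand. Capitals mark matches, on either strand, to the motifs searched, which were the GC box GGGCGG, the CCAAT box CCAAT, the E-box CACGTG, the AP-1 site TGANTCA, the cyclic AMP response element TGACGTCA, and the MEF2 site and the CArG box by their names. No 2 matches overlapped in these windows.
Mapk14: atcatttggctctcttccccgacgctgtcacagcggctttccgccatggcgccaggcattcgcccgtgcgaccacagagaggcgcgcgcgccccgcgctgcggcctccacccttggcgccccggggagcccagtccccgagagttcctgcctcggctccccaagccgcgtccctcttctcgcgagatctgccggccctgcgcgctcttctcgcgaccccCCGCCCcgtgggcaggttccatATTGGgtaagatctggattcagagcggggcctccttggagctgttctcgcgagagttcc
Mapk12: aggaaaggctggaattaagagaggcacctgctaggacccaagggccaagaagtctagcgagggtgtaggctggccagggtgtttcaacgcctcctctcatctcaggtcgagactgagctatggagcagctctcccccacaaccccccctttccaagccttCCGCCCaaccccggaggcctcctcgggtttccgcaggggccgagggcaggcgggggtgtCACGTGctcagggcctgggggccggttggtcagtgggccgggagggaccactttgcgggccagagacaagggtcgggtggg
Map2k3: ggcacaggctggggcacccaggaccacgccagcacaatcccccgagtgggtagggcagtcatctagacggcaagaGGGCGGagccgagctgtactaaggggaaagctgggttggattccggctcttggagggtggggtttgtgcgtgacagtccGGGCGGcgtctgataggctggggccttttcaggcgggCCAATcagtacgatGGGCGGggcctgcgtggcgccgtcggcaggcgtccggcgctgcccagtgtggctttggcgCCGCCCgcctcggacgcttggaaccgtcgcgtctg
Map2k6: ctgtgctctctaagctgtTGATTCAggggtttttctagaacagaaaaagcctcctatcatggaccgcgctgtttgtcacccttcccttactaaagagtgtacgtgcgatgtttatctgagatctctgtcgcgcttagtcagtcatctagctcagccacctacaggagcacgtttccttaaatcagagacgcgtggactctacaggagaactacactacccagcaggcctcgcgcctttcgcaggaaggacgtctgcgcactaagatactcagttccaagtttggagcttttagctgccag

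The Map2k3 window holds 4 GC boxes and 1 CCAAT box and has 68.0% G and C, while the Map2k6 window holds 1 AP-1 match and has 50%. The Mapk14 window holds 1 GC box and 1 CCAAT box at 68.7%, and the Mapk12 window 1 GC box and 1 E-box at 65.3%. The median over all 32851 promoters of the table is 52.7%. All 8 members matched an entry, with 12 windows between them. A GC box stood in 7 of the 12, against 35.7% of all promoters. A CCAAT box stood in 2 (37.4% of all), an E-box in 2 (7.15%) and an AP-1 site in 1 (7.81%). The cyclic AMP response element (1.79% of all), the MEF2 site (0.557%) and the CArG box (1.63%) had no match in the 12. A match is a run of letters and no measured site, and a window without one tells nothing about a factor.

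Signals are on the linear scale on which the submitters deposited them, with the same trimmed mean of 2500 on every array, and differences are on the log2(signal + 32) scale. A probe set was tested where its mean lay in the upper 60% of all, at a signal of about 414 or more, and was called at an adjusted p under 0.05. Unless an exact test is named, each p-value is from 1 limma fit to all 36 arrays, adjusted by Benjamini and Hochberg's method over the 27022 probe sets tested. The labels give replicate numbers but not whether each number is an animal of its own, so a p-value here weighs a difference against the spread between arrays only. The small number of arrays limits the precision. Levels of different probe sets are not set against each other, since probes bind unequally.

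Some arrays went against their labels. Esr1, whose probe set may also read the estrogen receptor part of Mer-Cre-Mer, stood at 12437 to 155949 in 21 of the 24 transgenic arrays and at 294 to 7943 in the shared controls. Replicate 3 of the early HRas-v12 females read 688, and replicates 1 and 3 of the late HRas-v12 males read 2915 and 1327. Replicates 8 and 9 of the late MKK7D control females, labelled non-transgenic, read 106402 and 91291, within the range of the transgenic arrays. Replicate 1 of the early MKK7D control females had the sex-linked genes Xist and Eif2s3y at 2316 and 6018, as in males. None of these 6 arrays is of the MKK3bE line or the shared controls. Among the shared controls, control female replicate 2 had Esr1 at 7943, against 294 to 832 in the others. Its Xist was 4033, against 8774 and 15354 in the other control females. It was kept as a control and not counted among the arrays in doubt. Some member values of HRas-v12 or MKK7D hearts lose or gain a call, or move by over 1.5 times, without the 6 arrays in doubt. These values are given both with and without them. Late MKK7D hearts then have 1 control array, which is assumed to vary like the other groups.

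The tissue read as heart muscle in every array. The 7 cardiac muscle markers summed to signals of 911402 to 1145550 in MKK3bE hearts, 703060 to 1025012 in early HRas-v12 hearts and 1086596 to 1471100 in shared controls. None of the 7 was called in either MKK3bE comparison. In early HRas-v12 hearts 7 of 7 were lower, when 18% of all genes were called lower there, and in late ones 6 of 7, against 4.68%. Of 7 fibroblast markers, 3 were higher in early MKK3bE hearts (3.03% of all genes), 3 in late MKK3bE hearts (4.35%) and 4 in early HRas-v12 hearts (14.3%), with sums of 227433 to 406414 in MKK3bE hearts, 164478 to 444867 in early HRas-v12 hearts and 162270 to 225199 in shared controls. Of 6 macrophage markers, 4 were higher in early HRas-v12 hearts, with sums of 34758 to 123904 against 34176 to 51647 in shared controls, and 0 were called in MKK3bE hearts. Of 6 endothelial markers, 5 were lower in early HRas-v12 hearts. None of the 3 lymphocyte markers on the array passed the signal filter. The 3 atrial muscle markers varied widely within groups, with sums of 3154 to 108286 in MKK3bE hearts and 4650 to 118912 in shared controls. Over all arrays these sums ran from 2204 to 132504. None of the 3 atrial markers was called in MKK3bE or HRas-v12 hearts against shared controls at either time. The part of these cell types in the members' values was not tested.

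Of the 17 member probe sets, 15 passed the filter. The other 2 were a Mapk11 probe set, 1421925_at, and the only one of Mapk13, 1448871_at. In early MKK3bE hearts 4 of the 15 were called, against 4.38% of all probe sets tested, and in late MKK3bE hearts 4 of 15, against 7.32%. In early HRas-v12 hearts 3 of 15 were called, against 28.2% of all, and in late ones 2 of 15, against 9.76%. The median change of the 15 was -0.33 in early and -0.16 in late MKK3bE hearts, with medians over all probe sets of -0.03 and 0.00. It was 0.05 in early and -0.07 in late HRas-v12 hearts, with medians over all of -0.04 and 0.02. In MKK7D hearts limma called 0 of 15 early, against 0.144% of all, and 0 of 15 late, when it called 0 of the 27022. At an unadjusted p under 0.05, 6 of the 15 stood out in early MKK7D hearts, with 2618 of all probe sets, and 1 of 15 in late ones, with 1264 of all. Without the arrays in doubt limma called 4 of 15 in early and 1 of 15 in late HRas-v12 hearts, against 35.9% and 1.15% of all. It then called 1 of 15 in early MKK7D hearts, against 0.607%. The added calls are of Mapkapk3 probe sets, and the one lost is of Mapk14.

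**Figure D1:**
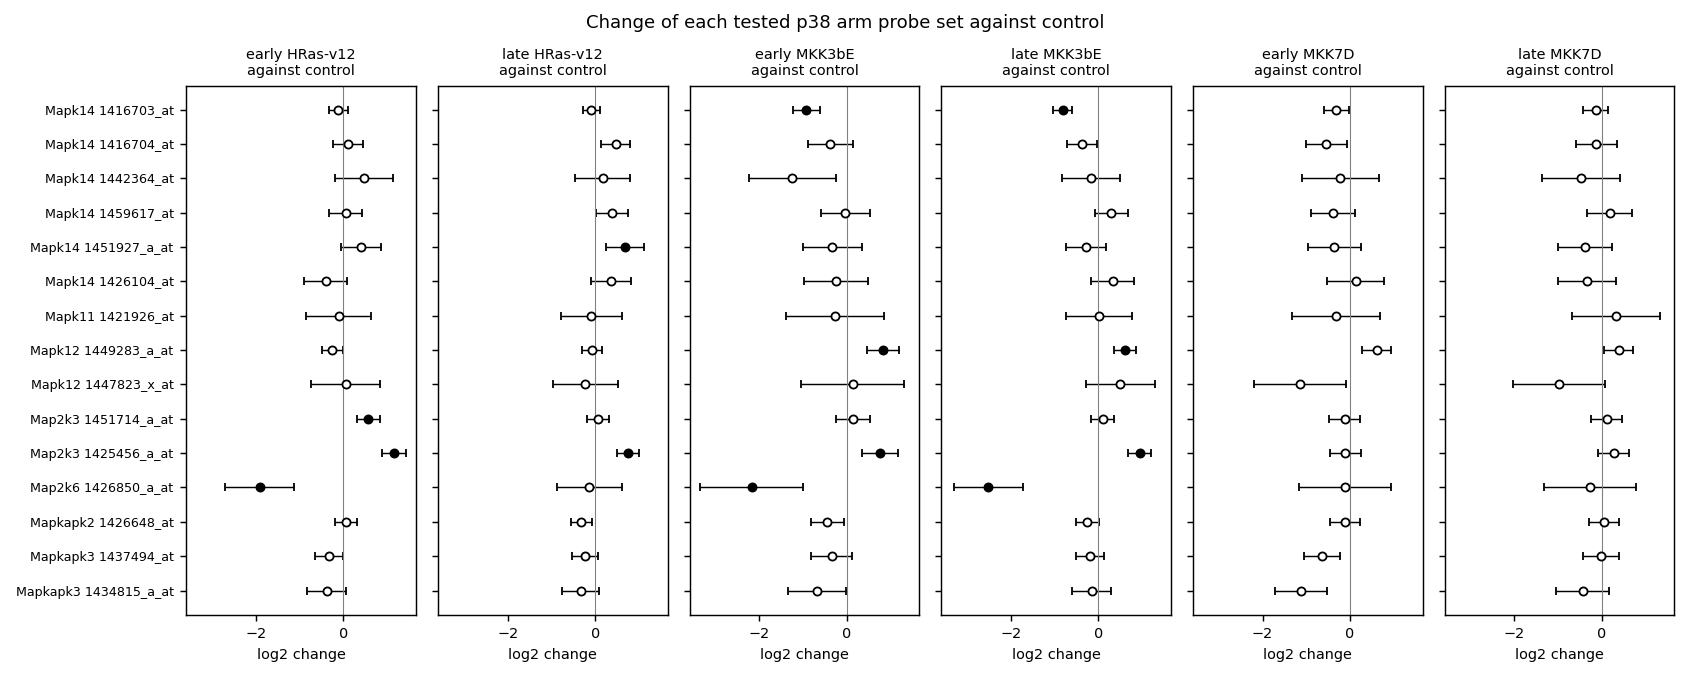
Log2 change of the 15 tested probe sets (points) with 95% intervals (bars) in 6 comparisons of a transgenic line with its controls; filled points are called at a limma adjusted p under 0.05. The Map2k6 point lies at -2.18 and -2.52 in MKK3bE hearts and at -1.92 in early HRas-v12 hearts, and no MKK7D point is filled.

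Map2k6 encodes MKK6, the second activator of p38. Its probe set 1426850_a_at read 194 and 382 in early MKK3bE females, against 1272, 1543 and 1261 in control females. Late, it read 228 and 219 in MKK3bE females and 100, 531 and 96 in MKK3bE males, against the same control females and 1730, 1235 and 907 in control males. Every MKK3bE array lay below every control array of either kind. The change was -2.18 early (SE 0.57, adjusted p = 0.0284) and -2.52 late (SE 0.39, adjusted p = 0.000256). The early call rests on few arrays: it was lost in 4 of 5 fits that left out 1 array, with changes of -2.61 to -1.74 and an adjusted p of up to 0.246. The late call held in all 11 such fits, at -2.87 to -2.33.

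For Map2k6, early HRas-v12 hearts read 291 and 1040 in females and 135, 112 and 353 in males, against 907 to 1730 over the 6 shared controls. The array at 1040, inside the control range, is female replicate 3, the one without the Esr1 signal of its line. The change was -1.92 (SE 0.39, adjusted p = 0.000691), and -2.35 without the 6 arrays in doubt (adjusted p = 5.63e-05). Early HRas-v12 females set against early MKK7D controls gave -1.21, which was not called (adjusted p = 0.356). That comparison sets 2 arrays against 3, with 1 in doubt on each side. It called 0.0592% of all probe sets, against 28.2% for early HRas-v12 hearts against shared controls. In late HRas-v12 hearts Map2k6 read 1750, 753 and 1302 in females and 2214, 481 and 1451 in males. These span the control range on both sides, with a change of -0.13 (SE 0.36, adjusted p = 0.848), and of 0.02 without the arrays in doubt (adjusted p = 0.989). The difference between late and early HRas-v12 hearts was itself called, at 1.79 (SE 0.39, adjusted p = 0.00477). It was 1.35 without female early replicate 1 (adjusted p = 0.0891) and 2.37 without the 6 arrays in doubt (adjusted p = 0.000691). Late MKK3bE hearts were 5.21-fold lower than late HRas-v12 hearts (log2 difference -2.38, SE 0.39, adjusted p = 0.000658), although 1 MKK3bE array at 531 lay above 1 HRas-v12 array at 481, and the early difference of -0.94 was not called (adjusted p = 0.575). Without the arrays in doubt, which include HRas-v12 female early replicate 3, that early difference was -0.08 (adjusted p = 0.98).

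MKK7D hearts overlapped their controls for Map2k6 at both times. It read 1498, 976 and 1216 early and 1036, 1504 and 985 late, against 1602, 1459 and 995 in early and 1458, 1176 and 1620 in late MKK7D controls. The changes were -0.13 early (adjusted p = 0.965) and -0.28 late (adjusted p = 1), and 0.01 and -0.48 without the arrays in doubt (adjusted p = 0.999 and 0.857). The MKK3bE change less the MKK7D change was -2.05 early (95% interval -3.63 to -0.47, adjusted p = 0.391) and -2.16 late (-3.74 to -0.58, adjusted p = 0.5), and neither passed the threshold. Set against MKK7D control females instead of the shared ones, Map2k6 was at -2.15 in early MKK3bE hearts (adjusted p = 0.0273) and at -2.49 in late MKK3bE females (adjusted p = 0.0219).

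**Figure D2:**
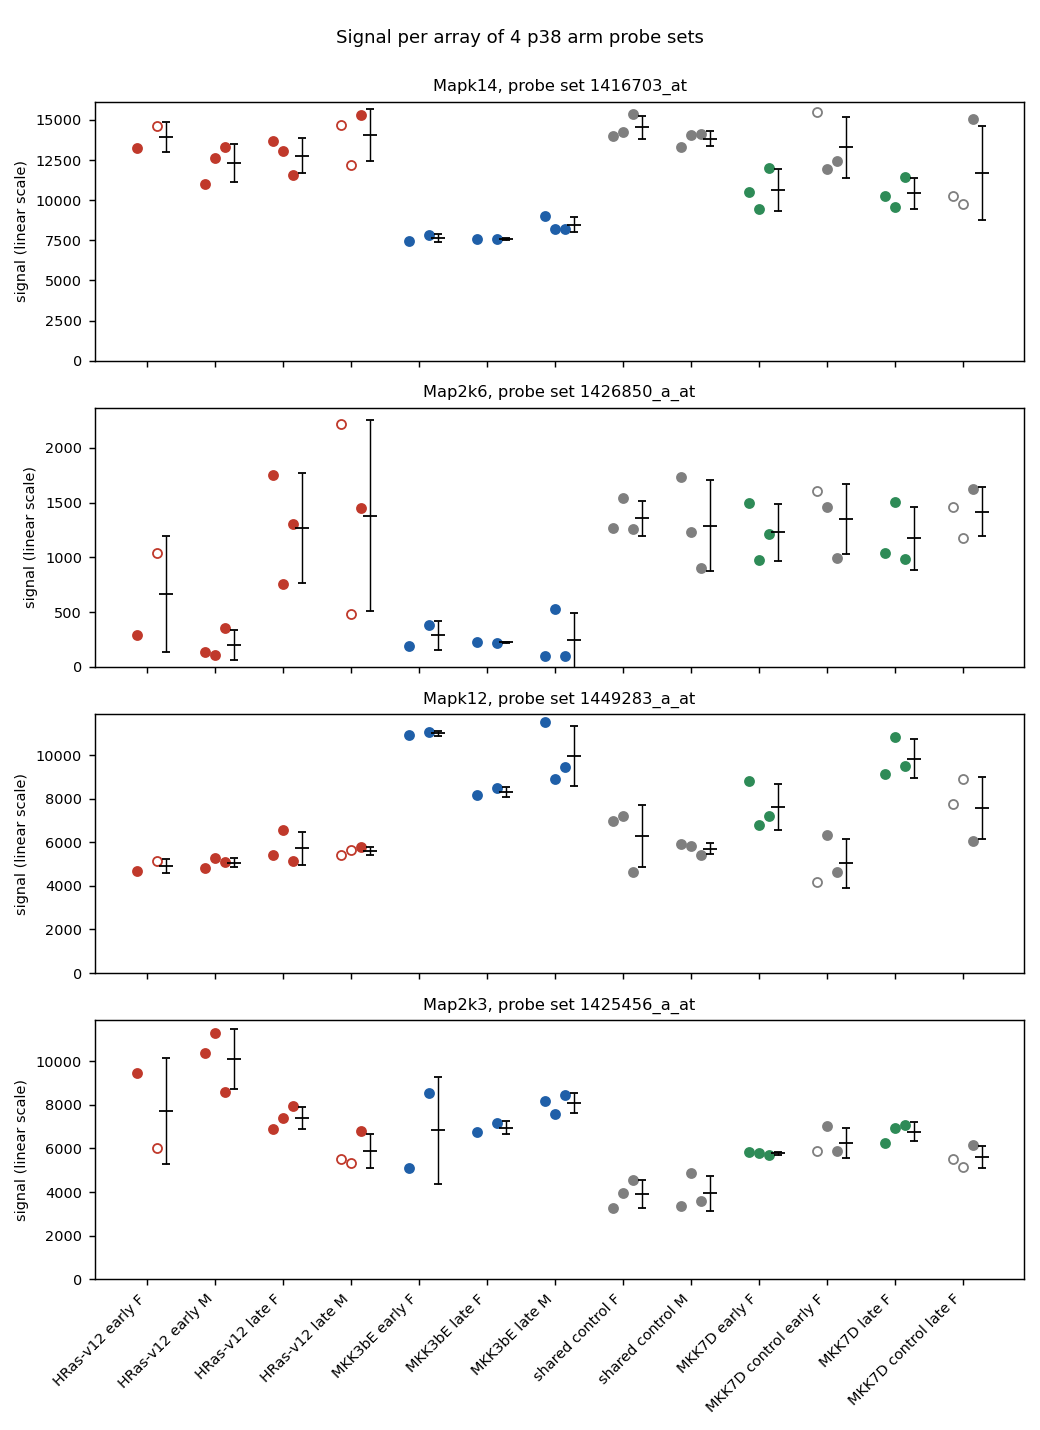
Signal (linear scale, 1 point per array; open points mark the 6 arrays in doubt) of Mapk14 1416703_at, Map2k6 1426850_a_at, Mapk12 1449283_a_at and Map2k3 1425456_a_at in the 13 groups, with bars for the mean ± SD. The 7 MKK3bE arrays lie at 7450 to 8998 for Mapk14 and at 96 to 531 for Map2k6, below all 12 control arrays in both.

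Map2k3 encodes MKK3, whose active form is the MKK3bE transgene. It has 2 probe sets. Where each lies in the transcript was not analysed here, so whether either can read transgene RNA was not tested. The brighter one, 1451714_a_at, read 15078 and 14867 in early MKK3bE females, against 12631, 16640 and 11894 in control females, a change of 0.14 (SE 0.19, adjusted p = 0.72). In late MKK3bE hearts it ran from 10720 over a median of 13639 to 16236 (n = 5), against 10176 over 12262 to 16640 in the 6 shared controls, a change of 0.10 (SE 0.13, adjusted p = 0.715). The MKK3bE arrays and their controls overlapped at both times.

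The same probe set was called higher in early HRas-v12 hearts. It read 20438 and 13453 in females and 20518, 24400 and 17143 in males, against the same 6 controls. The array at 13453 is female replicate 3, and the other 4 lie above every control. The change was 0.57 (SE 0.13, adjusted p = 0.00211). It was 0.42 without female early replicate 1 (adjusted p = 0.0615) and 0.72 without the 6 arrays in doubt (adjusted p = 0.000413). Set against early MKK7D controls, early HRas-v12 females were at 0.16, which was not called (adjusted p = 0.751, with 0.0592% of all probe sets called there). Late, it ran from 10073 over 12707 to 17374 in HRas-v12 hearts, a change of 0.06 (adjusted p = 0.807; 0.14 without the arrays in doubt, adjusted p = 0.715), and late HRas-v12 hearts were lower than early ones by 0.51 (log2 difference -0.51, adjusted p = 0.015). That difference was -0.36 without female early replicate 1 and the call was then lost, as it also was without female late replicate 2 (largest adjusted p = 0.193).

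The dimmer Map2k3 probe set, 1425456_a_at, was higher in both lines at both times. It read 5087 and 8560 in early MKK3bE females, against 3268, 3962 and 4536 in control females. Late, it read 6732 and 7165 in MKK3bE females and 8194, 7578 and 8468 in MKK3bE males, against the same control females and 3347, 4865 and 3603 in control males. No MKK3bE array reached down to the shared controls. The change was 0.76 early (SE 0.20, adjusted p = 0.0257) and 0.94 late (SE 0.13, adjusted p = 8.67e-05). The early value fell to 0.39 without MKK3bE female early replicate 2 and the call was lost without any 1 of 3 arrays, while the late call held in all 11 fits with 1 array left out.

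This probe set, in early HRas-v12 hearts, read 9446 and 5996 in females and 10384, 11273 and 8572 in males, a change of 1.15 (SE 0.13, adjusted p = 3.34e-06). In late ones it read 6909, 7393 and 7925 in females and 5529, 5321 and 6780 in males, a change of 0.75 (SE 0.12, adjusted p = 0.00283). All 11 HRas-v12 arrays lay above the shared controls. Without the 6 arrays in doubt the changes were 1.32 early (adjusted p = 2.53e-07) and 0.86 late (adjusted p = 0.0118).

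The MKK7D line has controls of its own for this probe set. It read 5838, 5794 and 5692 in early and 6264, 6914 and 7093 in late MKK7D hearts, against 5878, 7040 and 5857 in early and 5497, 5155 and 6172 in late MKK7D controls. The groups did not overlap at either time, but neither difference was called, at -0.11 early (adjusted p = 0.896) and 0.27 late (adjusted p = 1), and the late one was 0.13 without the arrays in doubt (adjusted p = 0.907). All 6 MKK7D controls lay above all 6 shared controls, and early MKK7D controls were higher than shared control females by 0.68 (SE 0.18, adjusted p = 0.0449). Of the 15 member probe sets this was the only one called in that comparison, against 1.46% of all. The call was lost in 5 of 6 fits that left out 1 array, at 0.55 to 0.79. Against MKK7D controls the change was 0.08 in early MKK3bE females, 0.31 in late MKK3bE females, 0.27 in early HRas-v12 females and 0.40 in late HRas-v12 females, with adjusted p of 0.85, 0.426, 0.566 and 0.154. In the same order, these comparisons called 5.36%, 2.21%, 0.0592% and 7.08% of all probe sets. The call of this probe set in both lines thus depends on which controls are used.

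**Figure D3:**
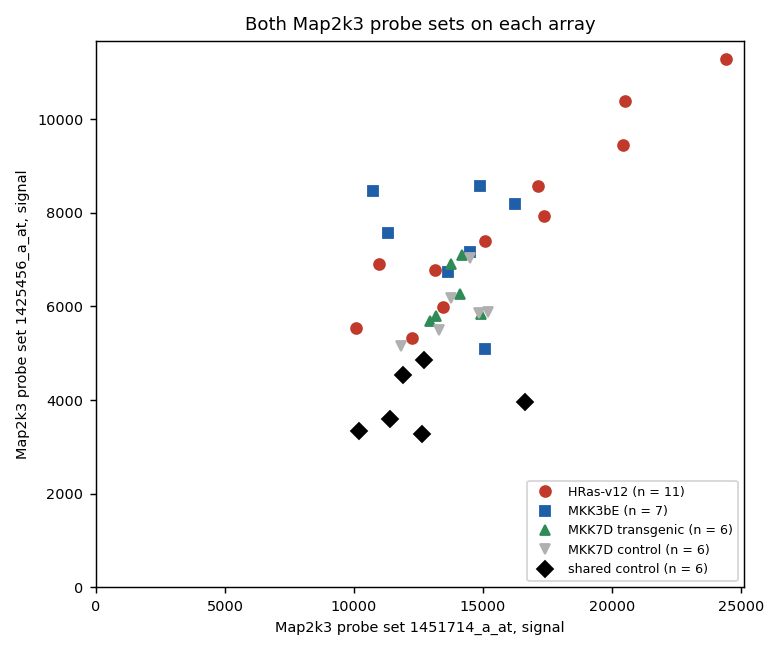
Signal of the brighter Map2k3 probe set (horizontal axis, linear scale) against that of the dimmer one (vertical axis, linear scale) on each of the 36 arrays, with marks by line. The dimmer probe set lies at 5087 to 8560 in MKK3bE hearts, 5155 to 7040 in MKK7D controls and 3268 to 4865 in shared controls, while the brighter one overlaps between all 3.

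Relative to the shared controls, the 2 Map2k3 probe sets thus moved unequally within an array. The mean log2 ratio of the brighter to the dimmer one was lower than in shared controls by 0.88 in late MKK3bE hearts (difference -0.88, exact two-sided permutation test over 462 arrangements, p = 0.00216, adjusted p = 0.0173 over 24 pairs of probe sets compared). It was lower by 0.70 in late HRas-v12 hearts (difference -0.70, exact permutation p = 0.00216, adjusted p = 0.0173) and by 0.60 in early ones (difference -0.60, exact permutation p = 0.00649, adjusted p = 0.0297). The p of 0.00216 is the smallest these tests can give. Early MKK3bE hearts, with 2 arrays, were not put to this test. The ratio was not tested against MKK7D controls, so these results hold for the shared controls only. The HRas-v12 ratios include the arrays in doubt and were not tested without them. Arrays of both sexes were permuted together. In early and late MKK7D controls the dimmer probe set averaged 6258 and 5608, against 3922 and 3938 in shared control females and males. The brighter one averaged 14850 and 12963, against 13721 and 11422. The non-transgenic control sets thus also differ more in the dimmer probe set.

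Mapk14 encodes p38α and has 6 probe sets, all above the filter, given here from the brightest. The brightest, 1416703_at, read 7450 and 7800 in early MKK3bE females, against 14020, 14246 and 15340 in control females. Late, it read 7560 and 7608 in MKK3bE females and 8998, 8225 and 8198 in MKK3bE males, against the same control females and 13317, 14076 and 14115 in control males. The 7 MKK3bE arrays spanned a narrow range that ended below the lowest of the other 29 arrays, at 9431. The change was -0.93 early (SE 0.15, adjusted p = 0.000995) and -0.82 late (SE 0.10, adjusted p = 2.15e-05). Both calls held in every fit that left out 1 array (-0.96 to -0.89 early, -0.84 to -0.80 late). The late change was -0.59 in females set against late MKK7D controls (adjusted p = 0.0371), 2 of which carry the driver signal.

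In HRas-v12 hearts the same probe set was not called at either time. It read 13253 and 14615 in females and 10985, 12621 and 13287 in males early, and ran from 11548 over 13356 to 15315 late (n = 6). The changes were -0.12 early (adjusted p = 0.421) and -0.09 late (adjusted p = 0.602), and the late one was -0.02 without the arrays in doubt (adjusted p = 0.944). The difference between MKK3bE and HRas-v12 females early was -0.87 (SE 0.17, adjusted p = 0.00739) and that between the lines late was -0.73 (SE 0.10, adjusted p = 0.000114). The early one was lost without HRas-v12 female replicate 3 or MKK3bE female replicate 1 (largest adjusted p = 0.0858), with values of -0.94 to -0.80, and called at -0.80 without all 6 arrays in doubt (adjusted p = 0.00658). In that early comparison 2 of the 15 member probe sets were called, against 1.05% of all, and in the late one 5 of 15, against 2.87%.

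MKK7D hearts were not called either. They read 10490, 9431 and 12015 early and 10269, 9568 and 11441 late, against 15462, 11955 and 12432 in early and 10268, 9731 and 15072 in late MKK7D controls. The 2 low late controls are replicates 8 and 9, those with the driver signal. The changes were -0.32 early (adjusted p = 0.438) and -0.14 late (adjusted p = 1), and they were -0.20 and -0.53 without the arrays in doubt (adjusted p = 0.571 and 0.0628). The MKK3bE change less the MKK7D change was -0.61 early (95% interval -1.03 to -0.19, adjusted p = 0.348) and -0.79 late (-1.22 to -0.37, adjusted p = 0.332). Without the arrays in doubt the early difference was -0.73 and passed the threshold (adjusted p = 0.048), while the late one was -0.40 (adjusted p = 0.627). Limma called 0 of 15 members in either of these differences, when 0.0296% and 0.037% of all probe sets were called. At an unadjusted p under 0.05, 3 of the 15 stood out early and 3 late, with 2590 and 2220 of all probe sets.

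The second Mapk14 probe set, 1416704_at, read 2739 and 4121 in early MKK3bE females, against 4020, 3161 and 6536 in control females. In late MKK3bE hearts it ran from 2540 over 3868 to 4434, against 3161 over 4900 to 6536 in the 6 shared controls. Groups overlapped, and changes of -0.37 early (adjusted p = 0.416) and -0.38 late (adjusted p = 0.176) were not called. It was lower in late MKK3bE than in late HRas-v12 hearts, where it ran from 5822 over 6250 to 7579 (difference -0.85, SE 0.17, adjusted p = 0.00439). It stood at 0.47 in late HRas-v12 hearts relative to controls (adjusted p = 0.0582). Early MKK7D hearts, at 3826 to 4569, lay below their own controls at 5442 to 6823. Late MKK7D hearts, at 3725 to 5338, overlapped theirs at 4068 to 5238. Neither MKK7D difference was called.

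The third, 1442364_at, ran from 633 over 2066 to 3874 in all MKK3bE hearts, against 1202 over 2654 to 5106 in shared controls. Its changes were -1.25 early (SE 0.48, adjusted p = 0.135) and -0.18 late (adjusted p = 0.796). The fourth, 1459617_at, ran from 1603 over 1810 to 2130 in MKK3bE hearts, against 1043 over 1594 to 2624 in shared controls, with changes of -0.03 (adjusted p = 0.964) and 0.29 (adjusted p = 0.354). Neither separated the MKK3bE hearts from the shared controls. 1459617_at was at 0.39 in late HRas-v12 hearts (adjusted p = 0.144), and at 0.80 in late females set against late MKK7D controls, where it was called (adjusted p = 0.0474). In early MKK7D hearts it read 1187 to 1219, below their controls at 1337 to 2037, and was not called. Late MKK7D hearts overlapped their controls on it, as MKK7D hearts did on 1442364_at at both times.

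The fifth, 1451927_a_at, ran from 714 over 1120 to 1393 in MKK3bE hearts and 751 over 1244 to 2114 in shared controls, with changes of -0.33 (adjusted p = 0.61) and -0.27 (adjusted p = 0.492). In late HRas-v12 hearts it read 1917, 2039 and 1629 in females and 2448, 2397 and 1879 in males, a change of 0.68 (SE 0.21, adjusted p = 0.04). That call was lost in 9 of 12 fits that left out 1 array, at 0.56 without the arrays in doubt (adjusted p = 0.321) and at 0.37 in late females set against late MKK7D controls (adjusted p = 0.477). Late MKK3bE hearts were lower than late HRas-v12 hearts by 0.95 (difference -0.95, SE 0.22, adjusted p = 0.0161). This difference was -0.83 and not called without the arrays in doubt (adjusted p = 0.0938), and it was also lost without MKK3bE male late replicate 2 or female late replicate 3. The dimmest, 1426104_at, ran from 365 over 650 to 908 in MKK3bE hearts and 474 over 548 to 700 in shared controls, with changes of -0.24 (adjusted p = 0.738) and 0.33 (adjusted p = 0.44). On the fifth and the dimmest probe set MKK7D hearts overlapped their controls at both times.

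The lower signal of Mapk14 in MKK3bE hearts was thus called in 1 of its 6 probe sets. Within an array, the log2 ratio of the brightest to 1459617_at was lower in late MKK3bE hearts than in shared controls by 1.08 (difference -1.08, exact two-sided permutation p = 0.00433, adjusted p = 0.026 over the 24 pairs). The ratio of the brightest to the dimmest was lower by 1.14 (difference -1.14, exact permutation p = 0.00216, adjusted p = 0.0173). The ratios to 1416704_at, 1442364_at and 1451927_a_at differed by -0.43, -0.59 and -0.55, and their adjusted exact permutation p were 0.204, 0.288 and 0.204. In late HRas-v12 hearts the ratios to 1416704_at and 1451927_a_at were lower by 0.56 and 0.77 (differences -0.56 and -0.77, exact permutation p = 0.00866 and adjusted p = 0.0297 for both). These late HRas-v12 ratios include arrays in doubt and were not tested without them. Over the 36 arrays 1416704_at and 1451927_a_at went closely together (Pearson r = 0.89), the brightest went with them less closely (r = 0.59 and 0.53), and it had r = 0.07 with 1459617_at and 0.02 with the dimmest. These arrays share groups, so the correlations are descriptions only.

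Mapk12 encodes p38γ. Its brighter probe set, 1449283_a_at, read 10923 and 11071 in early MKK3bE females, against 6984, 7204 and 4649 in control females. Late, it read 8160 and 8484 in MKK3bE females and 11496, 8883 and 9471 in MKK3bE males, against the same control females and 5901, 5820 and 5421 in control males. All 7 MKK3bE arrays lay above all 6 shared controls. The change was 0.83 early (SE 0.18, adjusted p = 0.0104) and 0.61 late (SE 0.12, adjusted p = 0.0034). Of the fits that left out 1 array, the smallest changes were 0.63 early and 0.51 late. Both came without control female replicate 2, the control at 4649, and both were still called. The early call was lost without either MKK3bE array (adjusted p up to 0.0975), and the late one held in all 11 fits with 1 array left out.

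HRas-v12 hearts ran from 4673 over 5092 to 5269 early and from 5158 over 5531 to 6577 late, with changes of -0.25 (adjusted p = 0.126) and -0.07 (adjusted p = 0.734). The difference between MKK3bE and HRas-v12 hearts was called at both times, at 1.16 early in females (SE 0.20, adjusted p = 0.00256) and 0.68 late (SE 0.12, adjusted p = 0.00165). MKK7D hearts read 8806, 6810 and 7209 early, against 4174, 6315 and 4640 in their controls, and 9148, 10830 and 9518 late, against 7747, 8903 and 6062. These groups did not overlap, but the changes of 0.60 (SE 0.16, adjusted p = 0.114) and 0.39 (SE 0.16, adjusted p = 1) were not called. Of the 3 late MKK7D controls, the 2 with the driver signal were the higher ones, and without the arrays in doubt the late change was 0.69 (adjusted p = 0.109). Against late MKK7D controls the change in late MKK3bE females was 0.15 (adjusted p = 0.709), and against early ones that in early MKK3bE females was 1.14 (adjusted p = 0.000745).

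Since p38γ is typical of striated muscle, the skeletal muscle markers are given beside it. Their 6 genes summed to signals of 118353 to 166828 in MKK3bE hearts, 108544 to 145018 in MKK7D hearts, 19838 to 45764 in early and 9774 to 63817 in late HRas-v12 hearts, 24823 to 136613 in MKK7D controls and 44501 to 133574 in shared controls. Acta1, the skeletal muscle actin that heart muscle also makes, was the only 1 of the 6 above the filter. Its change was 1.44 in early MKK3bE hearts (adjusted p = 0.165) and 0.97 in late ones (adjusted p = 0.144). Acta1 was called lower in early HRas-v12 hearts, at -1.20 (adjusted p = 0.0263), and was at -1.01 in late ones (adjusted p = 0.0837). Between MKK3bE and HRas-v12 hearts it was at 2.38 early (adjusted p = 0.0752) and was called higher late, at 1.98 (adjusted p = 0.00511). The part of this in the Mapk12 values was not tested. The dimmer Mapk12 probe set, 1447823_x_at, ran from 586 over 883 to 1076 in MKK3bE hearts and 452 over 642 to 882 in shared controls. It ran from 39 over 143 to 378 in MKK7D hearts. Their own controls were also low, at 303 to 511 early and 246 to 291 late, and MKK7D hearts overlapped them at both times. This probe set was called in none of the 6 comparisons. Over the 36 arrays the brighter probe sets of Mapk12 and Mapk14 ran against each other (Pearson r = -0.78).

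Mapk11 encodes p38β. Its brighter probe set, 1421926_at, ran from 356 over 585 to 810 in MKK3bE hearts, 150 over 702 to 1147 in HRas-v12 hearts and 454 over 625 to 825 in shared controls. Changes lay between -0.32 and 0.33 in all 6 comparisons on all arrays. The narrowest 95% interval, in late HRas-v12 hearts, ran from -0.79 to 0.62, so a change of any size within it remains possible there. Without the arrays in doubt the change was -0.76 in late HRas-v12 hearts (adjusted p = 0.285), 0.07 in early ones (adjusted p = 0.903), 0.70 in late MKK7D hearts (adjusted p = 0.667) and 0.02 in early ones (adjusted p = 0.994). The other, 1421925_at, ran from 36 to 361 over all arrays and was not tested. Mapk13 encodes p38δ. Its probe set read 37 to 88 in MKK3bE hearts, 21 to 78 in MKK7D hearts and 23 to 150 in shared controls. It stood apart in 2 arrays of early HRas-v12 males, at 604 and 662, with 58 in the other male and 118 and 48 in the females. It lay below the filter and was not tested.

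Mapkapk2 encodes MK2, the best known p38 target kinase. Its probe set 1426648_at read 19368 and 23823 in early MKK3bE females, against 28656, 29738 and 29404 in control females. The change was -0.45 (SE 0.19, adjusted p = 0.167), though the groups did not overlap. In late MKK3bE hearts it ran from 21835 over 24168 to 29375, against 23736 over 29030 to 38534 in shared controls, a change of -0.25 (adjusted p = 0.227). Against MKK7D controls, MKK3bE females were at -0.32 early (limma adjusted p = 0.325) and 0.02 late (limma adjusted p = 0.963). MKK7D hearts overlapped their own controls at both times. They read 22812 to 27382 against 26130 to 27522 early, and 21629 to 23277 against 21387 to 22740 late. In HRas-v12 hearts the changes were 0.05 early (adjusted p = 0.789) and -0.31 late (adjusted p = 0.0844), and the late one was -0.20 without the arrays in doubt (adjusted p = 0.485).

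Mapkapk3 encodes MK3. Its brighter probe set, 1437494_at, ran from 3060 over 3760 to 4753 in MKK3bE hearts and 3980 over 4611 to 5178 in shared controls, with changes of -0.35 early (adjusted p = 0.396) and -0.20 late (adjusted p = 0.472). In early HRas-v12 hearts it was at -0.33 (adjusted p = 0.109), and at -0.40 and called without the arrays in doubt (adjusted p = 0.0274). Early, the MKK3bE arrays at 3760 and 3491 lay below control females at 4003, 5178 and 4768. Early MKK7D hearts also lay below their own controls on this probe set, at 2521 to 3216 against 4012 to 4788, and were not called. Those controls averaged 4342 on it, against 4650 and 4418 in shared control females and males. The dimmer one, 1434815_a_at, read 2297, 2390 and 2566 in early MKK7D hearts, against 4364, 4918 and 6943 in their controls. These groups did not overlap, with a change of -1.12 (SE 0.29, adjusted p = 0.0952), and of -1.26 without the arrays in doubt (adjusted p = 0.0466). The early MKK7D controls were also the highest of the 13 groups on this probe set, and late ones read 2310, 1347 and 2787. Late MKK7D hearts were at -0.44 (adjusted p = 1), and at -0.87 without the arrays in doubt (adjusted p = 0.269). Early MKK3bE females, at 2588 and 1600, were at -0.68 against shared control females (adjusted p = 0.228) and at -1.37, which was called, against early MKK7D controls (adjusted p = 0.0149).

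Ordered by group mean, the 3 MKK3bE groups were the lowest of 13 for Mapk14 1416703_at, at 7584, 7625 and 8473, followed by late MKK7D hearts at 10426. From there up to control females at 14535, each group overlapped the next. For Map2k6 the 5 lowest means were those of early HRas-v12 males at 200, late MKK3bE females at 224, late MKK3bE males at 242, early MKK3bE females at 288 and early HRas-v12 females at 665, and each overlapped its neighbour. For Mapk12 1449283_a_at the highest mean was that of early MKK3bE females at 10997, above late MKK3bE males at 9950, late MKK7D females at 9832 and late MKK3bE females at 8322. For Map2k3 1425456_a_at the shared controls were lowest, at 3922 in females and 3938 in males, and did not overlap with the next group, late MKK7D controls at 5608.

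Neither time nor sex gave a call within the MKK3bE line. Limma called 0 of 15 members between late and early MKK3bE females, against 0.0111% of all, and 0 of 15 at an unadjusted p under 0.05. It called 0 of 15 for the male change less the female change in late MKK3bE hearts, against 0.0037% of all, and 0 of 15 between control males and control females, against 0.0703%, with 0 of 15 at an unadjusted p under 0.05 in both. In HRas-v12 hearts the male change less the female change was called for 0 of 15 early, against 0.666% of all, and for 0 of 15 late, against 0.0111%, where 2 and 0 had an unadjusted p under 0.05. For Mapk14 1416703_at the late less early difference was -0.01 (95% interval -0.35 to 0.34), and for Map2k6 it was -0.26 (-1.55 to 1.03). Between late and early HRas-v12 hearts 3 of 15 were called, against 9.04% of all. The third beside Map2k6 and the brighter Map2k3 probe set was the dimmest of Mapk14, 1426104_at, at 0.76 (adjusted p = 0.0436). Late, it stood at 1706 in male replicate 1, an array in doubt, and at 539 to 692 in the other 5, against 334 to 522 early, and the call was lost in 8 of 11 fits with 1 array left out and, at 0.58, without the arrays in doubt (adjusted p = 0.149). Limma called 0 of 15 between late and early MKK7D hearts, against 0.0037% of all, and 0 of 15 between late and early MKK7D controls, against 0.0444%, where 1 and 3 had an unadjusted p under 0.05.

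The 5 genes whose brightest probe set went most closely with Mapk14 1416703_at over the 36 arrays, of 12034 compared by Pearson correlation, were Fgf13 (r = 0.90), Nt5dc2 (0.89), Tnfaip8 (0.84), Mylk4 (0.84) and Ldhd (0.83). Without the 7 MKK3bE arrays these correlations were 0.61 to 0.84 over 29 arrays. Mylk4 had a mean signal of 3162 in MKK3bE hearts, against 33889 in shared controls. With Map2k6 went Gpr155 (r = 0.91), Fbxo10 (0.88), Pla2g5 (0.88), Mfap3l (0.87) and Hdac11 (0.84), and without the MKK3bE arrays their correlations were 0.83 to 0.91. Pla2g5, a secreted phospholipase, had a mean of 527 in MKK3bE hearts, against 4586 in shared controls. All these arrays share the groups that set Mapk14 and Map2k6 apart.

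Genes around the p38 arm were followed in 4 lists, each gene by its brightest probe set. The first held 18 kinases, adaptors and Gadd45 proteins upstream of p38. In early MKK3bE hearts 0 of 18 were called, when 5.35% of all genes were, with a list median of 0.03 against -0.02 over all genes. These lists and the members share the control arrays of both lines. In late MKK3bE hearts 1 was higher and 1 lower of 18, when 4.35% of genes were called higher and 4.55% lower (8.89% in all), with a median of -0.05 against -0.01. Gadd45b, a stress-induced activator of the upstream kinase MEKK4, averaged 2150 ± 501 in late MKK3bE hearts and 1236 ± 519 in shared controls (SD, n = 5 and 6), a change of 0.96 (SE 0.24, limma adjusted p = 0.0153). Map3k5, which encodes the stress-activated kinase ASK1, averaged 5218 ± 596 and 7127 ± 1189 in the same groups, a change of -0.45 (SE 0.14, limma adjusted p = 0.0498). The Gadd45b call was lost without MKK3bE female late replicate 2 or 3, and the Map3k5 call in 10 of 11 fits with 1 array left out.

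In early HRas-v12 hearts 4 of the 18 were higher and 6 lower, when 14.3% of genes were called higher and 18% lower (32.2% in all), with a median of 0.02 against -0.04. Gadd45g averaged 6568 ± 5136 in early HRas-v12 hearts and 1444 ± 526 in shared controls (SD, n = 5 and 6), a change of 1.67 (SE 0.33, limma adjusted p = 0.000653). Map3k5 changed by -0.73 (adjusted p = 0.000558). Both calls held without the arrays in doubt and with any 1 array left out. In late HRas-v12 hearts 1 of 18 was higher and 0 lower, when 4.83% of genes were called higher and 4.68% lower (9.51% in all). That gene was Taok2, at 0.49 (adjusted p = 0.0363), and the call was lost in 6 of 12 fits with 1 array left out. Listed genes given for late HRas-v12 hearts were chosen after their values were seen.

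**Figure D4:**
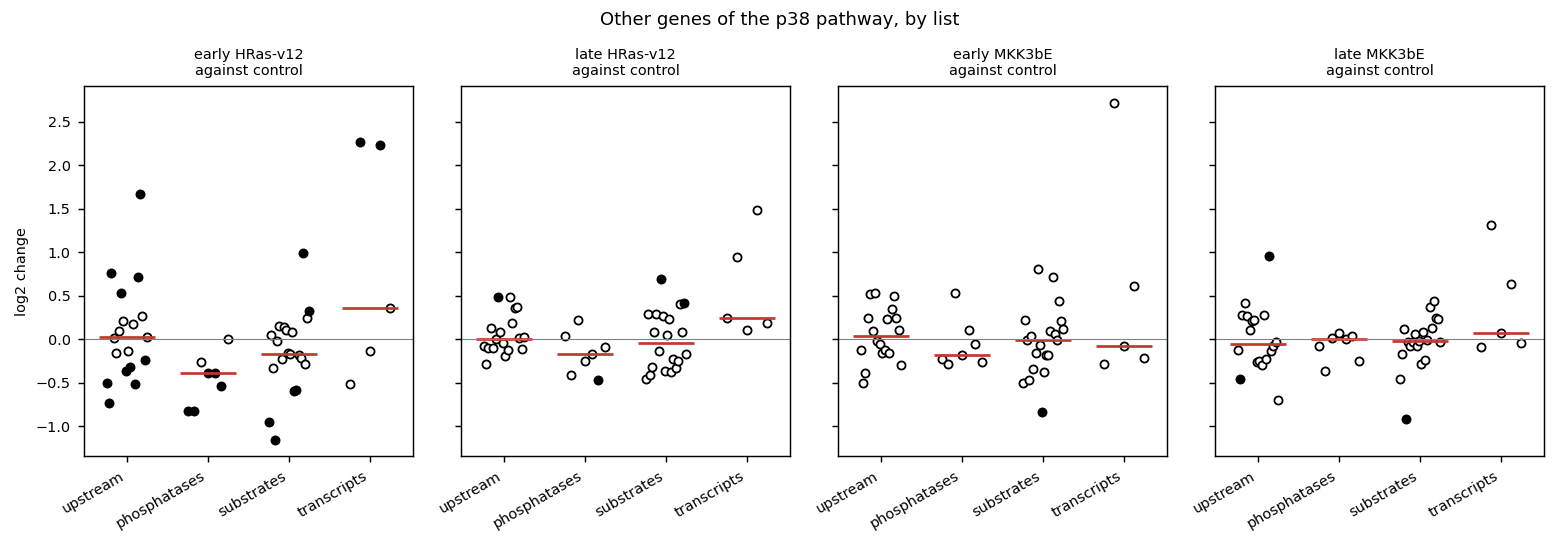
Log2 change of each tested gene (points; filled where called at a limma adjusted p under 0.05) in 4 p38 pathway lists, in both lines at both times against control, with the list median as a red line. The largest filled points are Ptgs2 at 2.27 and Ccl2 at 2.23 in early HRas-v12 hearts, while MKK3bE hearts have 1 filled point early and 3 late.

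The second list held 7 phosphatases that act on p38. In MKK3bE hearts 0 of 7 were called at either time, with medians of -0.18 early and 0.01 late. In early HRas-v12 hearts 5 of 7 were lower, against 18% of all genes, with a median of -0.39. Dusp1, which removes phosphate from p38 in the nucleus, averaged 11515 ± 6410 in early HRas-v12 hearts and 20065 ± 2443 in shared controls, a change of -0.82 (SE 0.13, limma adjusted p = 0.000119). Ppm1a, a serine and threonine phosphatase, averaged 18552 ± 3067 and 24444 ± 1632 in the same groups, a change of -0.39 (SE 0.09, adjusted p = 0.00189). The Dusp1 call held with any 1 array left out, and the Ppm1a call was lost without HRas-v12 female early replicate 1 (adjusted p = 0.0599). In late HRas-v12 hearts 1 of 7 was lower, Ppm1b at -0.46 (adjusted p = 0.0221), and it was at -0.34 without the arrays in doubt (adjusted p = 0.115).

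The third list held 22 substrates of p38 or of its downstream kinases, of which 20 were named on the array and tested. In early MKK3bE hearts 0 were higher and 1 lower of 20, when 3.03% of genes were called higher and 2.32% lower. Ddit3, which encodes the stress transcription factor CHOP, averaged 3069 ± 352 in early MKK3bE hearts and 5497 ± 624 in control females (SD, n = 2 and 3), a change of -0.83 (SE 0.22, limma adjusted p = 0.031). That call was lost in 4 of 5 fits with 1 array left out, and the late change was -0.02 (adjusted p = 0.959). In late MKK3bE hearts 0 were higher and 1 lower, when 4.35% of genes were called higher and 4.55% lower. Rps6ka5, which encodes the p38 and ERK target kinase MSK1, averaged 782 ± 173 in late MKK3bE hearts and 1437 ± 210 in shared controls, a change of -0.91 (SE 0.23, limma adjusted p = 0.0144). It was lost without either late MKK3bE female (adjusted p up to 0.0672). Rps6ka5 was also lower in early HRas-v12 hearts, at -1.15 (adjusted p = 0.000567). There 2 of 20 were higher and 4 lower, when 14.3% of genes were called higher and 18% lower. Zfp36, which encodes the mRNA-destabilising protein tristetraprolin, was at 1.00 there (adjusted p = 0.00012), with 9355 ± 2049 in early HRas-v12 hearts and 4623 ± 1031 in shared controls. Both calls held with any 1 array left out. Late, Elk1 and Zfp36l2 were higher in HRas-v12 hearts, at 0.70 and 0.42 (adjusted p = 0.0254 and 0.0311), and neither was called without the arrays in doubt.

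The fourth list held 7 mRNAs that p38 and MK2 keep stable, of which 5 passed the filter, Il6 and Tnf lying below it. In MKK3bE hearts 0 of 5 were called at either time. Ptgs2, which encodes the prostaglandin enzyme COX-2, averaged 1026 ± 576 in early MKK3bE hearts and 139 ± 109 in control females, with a change of 2.72 (SE 1.03, limma adjusted p = 0.126). Of the 5, 2 were higher in early HRas-v12 hearts, when 14.3% of all genes were called higher there. Ptgs2 averaged 3578 ± 3801 there and 268 ± 167 in shared controls, a change of 2.27 (SE 0.69, limma adjusted p = 0.0151), and Ccl2, a monocyte chemokine, changed by 2.23 (adjusted p = 0.0107). Both calls were lost without HRas-v12 female early replicate 1, at 1.15 and 0.67, and were 3.40 and 3.80 without the arrays in doubt. In MKK7D hearts limma called 0 genes of all 4 lists at either time, when 0.135% of genes were called early and 0 late.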

How the data were processed

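RNA of 36 left ventricle samples was measured on 1-colour Affymetrix mouse genome arrays. The authors deposited 1 linear signal intensity per probe set and array. MAS5 is the tool that the submitters' processing notes name, with its version not given in the sources used here. In the deposited intensities, the mean after trimming 2% at each end is 2500 on every array, and array medians run from 593.5 to 798.6. Per the platform annotation, 34958 probe sets have 1 gene symbol, 932 several and 9211 none. The 64 control probe sets were left out.

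Signals were taken as log2(signal + 32). Probe sets in the upper 60% by mean were fitted with limma 3.58.1 in R 4.3.3 (lmFit, eBayes with an intensity trend) to all 13 groups, which left 23 residual degrees of freedom, and 19 comparisons were made. Changes were averaged over both sexes where a line had both. Ratios of 2 probe sets of a gene were compared by exact permutation. The fit was tested on simulated data.

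The members and gene lists were chosen with earlier results of these data known. Members are described probe set by probe set. Of each list, up to 4 genes called in early MKK3bE hearts and up to 2 each in late MKK3bE and early HRas-v12 hearts are named, by smallest adjusted p. Outside the lists, the 5 genes with the highest Pearson correlation with the brightest Mapk14 and the Map2k6 probe set are named. Alternatives were other offsets, filters, normalizations, spreads and designs, the replicate block, leaving out each array, leaving out the 6 arrays in doubt and, added after seeing the data, the MKK7D control females as controls. Hras and Map2k7 probe sets were not analysed here.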

Additional observations from a re-analysis of the deposited data

Results flagged for a closer look

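Effects of the MKK3bE and HRas-v12 transgenes, which share control arrays, differed by a test of the difference itself for 5 probe sets. In females early, Mapk14 1416703_at was lower in MKK3bE than in HRas-v12 hearts by a log2 difference of -0.87 and Mapk12 1449283_a_at was higher by 1.16. Late, Mapk14 was lower in 3 probe sets, at -0.73 for 1416703_at, -0.85 for 1416704_at and -0.95 for 1451927_a_at. Map2k6 was lower by -2.38 and Mapk12 1449283_a_at higher by 0.68 late.

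Late HRas-v12 hearts differed from early ones in 3 probe sets. Map2k6 was higher by 1.79 late, Mapk14 1426104_at was higher by 0.76, and Map2k3 1451714_a_at was lower, at -0.51. Each of these 3 calls was lost when certain single arrays were left out, among them HRas-v12 female early replicate 1 in each case. No group held 4 or more arrays, so single arrays were not tested as outliers within a group.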

How the results depend on the processing

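The 13 called changes of single member probe sets were each recomputed under the alternative settings, which gave 256 recomputed changes in all. Of these, 216 kept direction and call, 40 kept the direction and lost the call, and 0 turned the direction. The count of member probe sets called moved by over 1.5 times in the following cases. In late HRas-v12 hearts (2 called), it was 1 with no filter on low signals, with quantile normalization, without the 6 arrays in doubt or in late females against late MKK7D controls. It was 0 there with the brightest probe set of each gene or when only the groups compared were fitted. In early MKK3bE hearts (4) it was 2 when only the groups compared were fitted. In late MKK3bE hearts (4) it was 2 in late females against late MKK7D controls, where 2.21% of all probe sets were called. In early HRas-v12 hearts (3) it was 0 in early females against early MKK7D controls, where 0.0592% of all were called. In early MKK7D hearts, and for the early MKK3bE change less the MKK7D change (0 in both), it was 1 without the arrays in doubt and 1 when only the groups compared were fitted. That last fit gave 0 between late and early HRas-v12 hearts (3) and 0 between the lines early (2), while 3 were called between the lines late (5) with the brightest probe set per gene. Between early MKK7D controls and shared control females (1) it was 0 with no filter, quantile normalization, the brightest probe set of each gene, no intensity trend, or only those groups. Leaving out 1 array at a time gave 2 to 4 in early and 1 to 4 in late HRas-v12 hearts, 1 to 4 in early and 4 to 4 in late MKK3bE hearts, and 0 to 1 in early MKK7D hearts. It gave 0 to 5 between late and early HRas-v12 hearts, 1 to 2 early and 4 to 5 late between the lines, 0 to 1 for the late MKK3bE change less the MKK7D change, 0 to 1 between control sets, and 0 to 3 between late and early MKK7D controls. Where this left 1 array in a group, that array was assumed to vary like the other groups.

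Arrays with the same replicate number did not deviate together: over 57 pairs r ran from -0.51 to 0.30, with 7 over 0.1, so the numbers were not taken as pairing. With the replicate number as a block, 1 member was called in early MKK3bE hearts, 3 in late MKK3bE hearts, 0 in late HRas-v12 hearts, 0 between late and early HRas-v12 hearts and 0 between early MKK7D controls and shared females. Over all probe sets the fit with the block made 271 calls in early MKK3bE, 297 in late MKK3bE and 0 in late HRas-v12 hearts. The fit without it made 1183, 1977 and 2636 in the same order. No paired analysis was possible because the numbers do not overlap for late MKK7D hearts, late against early MKK7D hearts or controls, and the late MKK3bE change less the MKK7D change.

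Over all probe sets, counts also rested on single arrays. Early MKK3bE hearts had 146 calls without female replicate 2 and 3243 without the 6 arrays in doubt, and late HRas-v12 hearts had 4889 without male replicate 4 and 310 without the arrays in doubt. Probe sets near background, such as those of Mapk11 and Mapk13, limit what could be detected.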
